A study of Homo sapiens with 6 samples.

Results

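The nuclear tRNA genes for glycine, alanine, cysteine and threonine were examined for peaks of RNA crosslinked to the chaperones HSPA1A and HSPA8. The genes were taken from the RefSeq table of GRCh38.p14 as entries of biotype tRNA, outside the mitochondrial chromosome, whose symbols start with TRG-, TRA-, TRC- or TRT-. They numbered 112 of 443 nuclear tRNA genes: 30 for glycine, 33 for alanine, 29 for cysteine and 20 for threonine. A gene counted as carrying a peak when a peak overlapped it by 1 bp or more.

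HEK293 Flp-In T-Rex, an established line of human embryonic kidney origin with a site for inducible transgenes, supplied all libraries. Each line expressed 3xFLAG-HBH tagged GFP, HSPA1A or HSPA8, and in all of them the tagged protein was induced with 1 μg/ml tetracycline. FLASH-seq crosslinks protein to RNA with UV-C light, purifies the tagged protein on nickel and streptavidin beads, and sequences the RNA fragments that remain after a short RNase I digestion. There were 2 biological replicates per bait, and the files used here are the 4 peak lists of HSPA1A and HSPA8, with 2744 and 2059 peaks for HSPA1A and 3131 and 2040 for HSPA8. Peaks of the GFP bait were not analysed here, so no value has a control bait beside it. The labels of the second HSPA1A library restrict its use in the study to defining peaks found in both replicates. The lists hold peaks and no expression levels, so the identity of the line was not checked against markers.

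HSPA8 is the constitutive and HSPA1A the stress-inducible cytosolic HSP70, chaperones that bind and release unfolded protein stretches in a cycle driven by ATP. Transfer RNAs are short RNAs made by RNA polymerase III from promoters inside the gene. After transcription the leader and trailer are removed, the triplet CCA is added to the 3′ end, and a synthetase attaches the matching amino acid. Human tRNA genes exist in many copies. In the gene symbol the letter after TR gives the amino acid, the next letters the anticodon, the first number a family with the same mature sequence, and the last number the copy. The 112 genes formed 82 such families, and 14 families had more than 1 copy and held 44 genes. Reads from identical copies cannot be assigned to 1 of them, and how such reads were treated is not given in the sources used here.

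Peaks lay on 51 of the 112 genes (45.5%) in at least 1 list, against 187 of the 331 other nuclear tRNA genes (56.5%). HSPA1A replicate 1 had a peak on 42 of these genes and HSPA1A replicate 2 on 22. HSPA8 replicate 1 had 31 and HSPA8 replicate 2 had 5. Both lists numbered 1 were thus above the list numbered 2 of the same bait, and the ranges of the baits overlapped. Over all nuclear tRNA genes the corresponding shares were 39.3%, 34.3%, 39.5% and 12.6%, beside 37.5%, 19.6%, 27.7% and 4.46% of the 112 genes.

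Each gene with a peak carried exactly 1 peak in that list, and no peak covered more than 1 of the genes. Peaks on the same gene lay on the same strand in every list that had one. Of the 61 genes without a peak, 0 had a peak of any list within 100 bp.

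Glycine tRNA genes carried 61 of the 100 peaks found over the 4 lists. A peak in any list was found on 24 of 30 glycine genes (80%), 13 of 29 cysteine genes (44.8%), 6 of 20 threonine genes (30%) and 8 of 33 alanine genes (24.2%). In the separate lists glycine genes with a peak made up 70.0% and 56.7% with HSPA1A and 60.0% and 16.7% with HSPA8. Alanine genes gave 18.2% and 3.03% with HSPA1A, and 6.06% and 0% with HSPA8. Threonine genes gave 15.0% and 20% with HSPA1A and 10.0% and 0% with HSPA8. The genes for cysteine split by replicate number, at 41.4% and 31.0% in the lists numbered 1 and 0% in both lists numbered 2. This split is not particular to cysteine. Genes with symbols starting TRM-CAT, among the other tRNA genes, also had peaks in both lists numbered 1 and in neither list numbered 2.

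**Figure D1:**
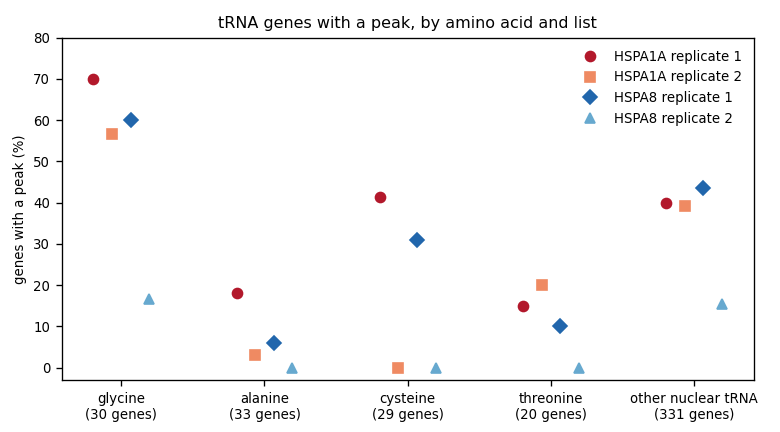
Percentage of tRNA genes with a peak (vertical axis) for each amino acid and for the 331 other nuclear tRNA genes, with 1 point per list and no error bars. Glycine points lie above the other tRNA genes in each list, and cysteine points are at 0% in both lists numbered 2.

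The 112 genes together carried peaks less often than the other tRNA genes in each of the 4 lists. HSPA1A differed by -2.38 and -19.6 percentage points and HSPA8 by -15.8 and -10.9, with a mean of -12.2 ± 7.45 (SD, n = 4). An exact two-sided sign-flip permutation test over the lists gave p = 0.125, the smallest it can give with 4 lists. Glycine genes differed the other way, with a mean of 16.3 ± 11.8 percentage points above the other tRNA genes (SD, n = 4), higher in 4 of 4 lists. In HSPA8 replicate 2 their excess was 1.26 points and came from copies of 1 family. The mean difference was -27.7 ± 10.9 points for alanine and -23.3 ± 7.86 for threonine (SD, n = 4 each), lower in 4 of 4 lists for both. The exact permutation p was 0.125 for glycine, alanine and threonine (adjusted over the 4 amino acids, 0.167). Cysteine genes averaged -16.4 ± 16.9 points (SD, n = 4) and were lower in 3 of 4 lists (exact permutation p = 0.25, adjusted 0.25). Their mean was -8.79 without HSPA1A replicate 2 and -9.52 with each family counted once.

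Counting each family once reduced the glycine excess to 4.53 percentage points (exact permutation p = 0.625), and in peaks scored above their list's median it turned to -7.46 (exact permutation p = 0.375). With each family counted once, glycine was at 50% and 21.4% with HSPA1A and 42.9% and 7.14% with HSPA8. These shares lay above the other tRNA families in both lists numbered 1 and below them in both lists numbered 2.

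Between the baits, HSPA1A had a peak on 32 ± 14.1 of the genes and HSPA8 on 18 ± 18.4 (SD, n = 2 each). The difference of 14 genes did not exceed the SD of either bait (p = 0.667 in an exact two-sided permutation test that can reach 0.333). It was 1 gene without HSPA8 replicate 2 and 4 genes without HSPA1A replicate 1. As a share of all peaks in the list, peaks on these genes made up 1.53% (95% Wilson interval 1.13 to 2.06) and 1.07% (0.707 to 1.61) for HSPA1A. The HSPA8 lists gave 0.990% (0.698 to 1.40) and 0.245% (0.105 to 0.573). Both HSPA1A values lay above both HSPA8 values, with means of 1.30% ± 0.327 and 0.618% ± 0.527 (SD, n = 2 each, exact permutation p = 0.333, the smallest possible). The HSPA8 lists also held 353 and 617 peaks on scaffolds that the HSPA1A lists lack. On the chromosomes listed for all 4 libraries HSPA8 replicate 1 was at 1.12%, above HSPA1A replicate 2, so the ranges of the baits overlapped there (p = 0.667 in the exact test).

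By amino acid the bait difference, HSPA1A minus HSPA8, was 25.0 percentage points of the glycine genes, 7.58 of alanine, 5.17 of cysteine and 12.5 of threonine. Without HSPA8 replicate 2 it was 3.33 for glycine, 7.50 for threonine and -10.3 for cysteine, and without HSPA8 replicate 1 it was 46.7 for glycine and 20.7 for cysteine. Without HSPA1A replicate 1 it was 0 for alanine and -15.5 for cysteine, and without HSPA1A replicate 2 it was 15.2 for alanine and 25.9 for cysteine. With each family counted once the glycine difference was 10.7. The baits separated without overlap for threonine alone, at 17.5% ± 3.54 against 5.00% ± 7.07 (SD, n = 2 each). These were 3 and 4 genes with HSPA1A against 2 and 0 with HSPA8. The exact permutation p was 0.333 for threonine, 0.667 for glycine and alanine and 1 for cysteine, and at least 0.889 after adjustment over the 4 amino acids. With equal numbers of top-scoring peaks from each list, threonine was at 5% and 20% with HSPA1A and 10% and 0% with HSPA8. The baits then overlapped (p = 0.667 in the exact permutation test).

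Reproduction between replicates was counted next. Both HSPA1A lists had a peak on 17 of the 112 genes (15.2%), beside 26.0% of all nuclear tRNA genes. Both HSPA8 lists had a peak on 5 (4.46%), beside 11.5% of all nuclear tRNA genes. The same 5 genes carried a peak in all 4 lists (4.46%, beside 7.45%). Of the 22 genes in HSPA1A replicate 2, 77.3% also had a peak in replicate 1, beside 75.4% among other tRNA genes. All 5 genes of HSPA8 replicate 2 had a peak in replicate 1, beside 90.2% among other tRNA genes. Of genes in either HSPA1A list 36.2% were in both, beside 59.8% among other tRNA genes, and for HSPA8 the shares were 16.1% and 30.9%. Both lists numbered 1 had a peak on 24 of the 112 genes (21.4%), beside 96 of the other tRNA genes (29.0%).

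The 17 genes in both HSPA1A lists fell to 5 when each family was counted once, and the 5 genes in all 4 lists were copies of 1 family. At the other end, 21 genes had a peak in a lone list, 15 of them in HSPA1A replicate 1. The corresponding count for other tRNA genes is not given here.

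The scores given by the authors to these peaks were low. With HSPA1A they ran from 5 to 10 in replicate 1 and from 5 to 11 in replicate 2. With HSPA8 they ran from 4 to 19 in replicate 1 and were 5 for each of the 5 peaks of replicate 2. On other tRNA genes the highest scores were 354, 361, 96 and 60. Since the score's meaning is not stated, each peak was placed by its percentile within its own list. HSPA1A had median percentiles of 30.03 and 32.1, and HSPA8 of 43.3 and 3.995. Peaks on other tRNA genes had medians of 53.5, 44.9, 52.2 and 19.5.

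These genes thus had a lower median score percentile than the other tRNA genes in each list. In HSPA8 replicate 1, 9 of the 31 peaks scored above the list's median score, and in the other 3 lists 0 did. The corresponding counts for other tRNA genes were 72, 50, 73 and 12 peaks.

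**Figure D2:**
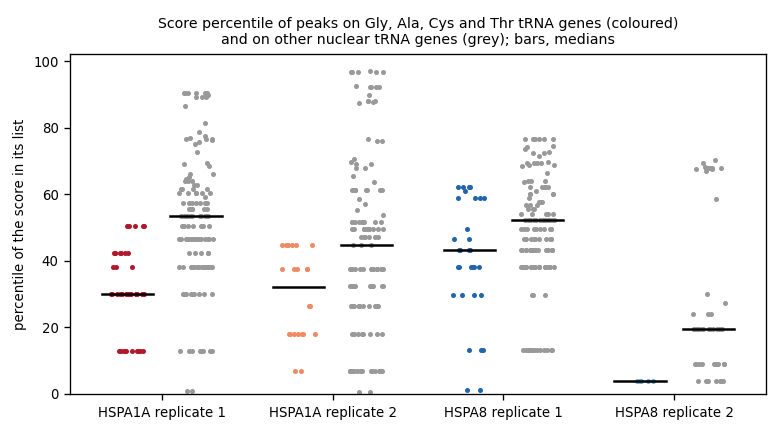
Percentile of each peak's score within its list (vertical axis) for glycine, alanine, cysteine and threonine tRNA genes in colour and for other nuclear tRNA genes in grey, with 1 dot per peak and a bar at the median. The coloured medians of 30.03, 32.1, 43.3 and 3.995 lie below the grey medians of 53.5, 44.9, 52.2 and 19.5.

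Glycine genes were compared by anticodon. Of 13 GCC genes 12 and 11 had a peak with HSPA1A, and 9 and 5 with HSPA8. Of 9 TCC genes the counts were 5, 6, 7 and 0, and of 8 CCC genes 4, 0, 2 and 0. The share of genes with a peak was higher for GCC than for TCC in 3 lists and lower in HSPA8 replicate 1, at 69.2% against 77.8%. The anticodon CCC was seen with both baits, but in the lists numbered 1 alone.

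The 5 genes with a peak in all 4 lists were the copies of TRG-GCC1. TRG-GCC1-1 lies on chromosome 1 from 161443304 to 161443374, TRG-GCC1-2 from 161450677 to 161450747, TRG-GCC1-3 from 161458108 to 161458178 and TRG-GCC1-4 from 161465468 to 161465538. TRG-GCC1-5 lies on chromosome 21 from 17454789 to 17454859. None of the 5 lies inside another gene of the table. TRG-GCC1-1 to TRG-GCC1-4 scored 10 and 11 with HSPA1A and 19 and 5 with HSPA8. TRG-GCC1-5 had 10, 11, 18 and 5, so the copies were scored alike and their peaks are uncertain between them. Within their own lists the scores of TRG-GCC1-1 stood at percentiles of 50.4 and 44.9 for HSPA1A and 62.1 and 3.995 for HSPA8, so the HSPA8 lists were the highest and the lowest.

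The extent of the TRG-GCC1 peak differed between lists and was the same in every copy. In HSPA1A replicate 1 it began at the first base of the gene and stopped 21 bp before the 3′ end. In HSPA1A replicate 2 it began 1 bp before the gene and stopped 1 bp before its end. In both HSPA8 lists it began at the first base and ran 3 bp past the end, covering the whole gene.

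On chromosome 1 the copies of TRG-GCC1 alternate with glycine TCC genes. Successive TRG-GCC1 copies start 7373, 7431 and 7360 bp apart, and TRG-TCC2-2, TRG-TCC2-3, TRG-TCC2-4 and TRG-TCC2-5 lie between or after them, starting 4281, 4289, 4268 and 4289 bp further on. Peaks on the GCC copies lay on the plus strand and peaks on these TCC copies on the minus strand. These 4 TCC copies shared scores of 6 and 9 with HSPA1A and 16 in HSPA8 replicate 1, and had no peak in HSPA8 replicate 2.

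TRG-TCC2-1 and TRG-TCC2-6, also on chromosome 1, belong to the same family but were scored apart from it. They had no peak in HSPA1A replicate 1, a score of 6 in HSPA1A replicate 2 and 4 in HSPA8 replicate 1. Their peaks ended 1 bp past the gene in both lists, while peaks on the other 4 copies ended 3 bp past it in the same lists and 2 bp past it in HSPA1A replicate 1.

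All 6 copies of TRG-GCC2 carried a peak in both HSPA1A lists, with scores from 6 to 8 and from 6 to 7. In HSPA8 replicate 1, 4 copies had a peak with scores from 6 to 9, and in HSPA8 replicate 2 none of the 6 had one. The copies without a HSPA8 peak were TRG-GCC2-2, inside GPD2 on chromosome 2 from 156401147 to 156401217, and TRG-GCC2-3, on chromosome 6 from 27902908 to 27902978. TRG-GCC2-2 scored 7 and 6 in the HSPA1A lists, and TRG-GCC2-3 scored 6 and 7. With TRA-AGC3-1 they were the 3 of the 112 genes with a peak in both HSPA1A lists and in neither HSPA8 list. Other tRNA genes had this pattern too, among them TRE-TTC1-1, TRF-GAA1-1 and TRK-TTT1-1, so it is not particular to these genes. The number of other tRNA genes with it is not given here. The reverse pattern was seen for 0 genes. All 5 of the genes in HSPA8 replicate 2 also had a peak in HSPA1A replicate 2, as did all 51 other tRNA genes in that list, so the reverse pattern was absent from every nuclear tRNA gene. Since TRG-GCC2-2 and TRG-GCC2-3 share a mature sequence with the 4 other copies, their pattern is uncertain between copies.

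**Figure D3:**
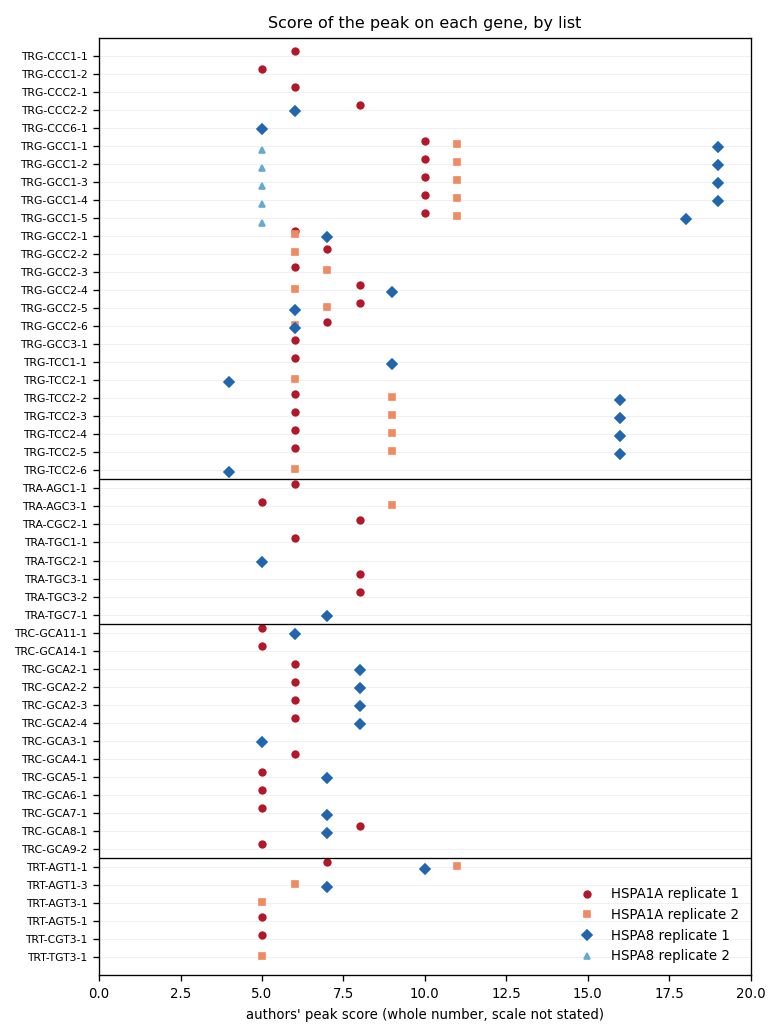
Authors' score (horizontal axis, whole number of unstated scale) of the peak on each of the 51 genes with a peak, with 1 symbol per list and lines between glycine, alanine, cysteine and threonine. The TRG-GCC1 copies reach 18 to 19 and the TRG-TCC2 copies 16 in HSPA8 replicate 1, and scores of different lists are not on a common scale.

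Cysteine tRNAs all share the anticodon GCA. Their 13 genes with a peak belonged to 10 families, and 8 of the 13 had a peak in both lists numbered 1. Scores were 5 to 8 in both of those lists. With equal numbers of top-scoring peaks from each list, cysteine genes with a peak fell from 41.4% to 20.7% in HSPA1A replicate 1 and from 31.0% to 24.1% in HSPA8 replicate 1, and were at 0% in the others. The part of list length and depth in this split was not tested.

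The family TRC-GCA2 has 4 copies, 1 on chromosome 4 and 3 on chromosome 17, and each had a score of 6 in HSPA1A replicate 1 and 8 in HSPA8 replicate 1. TRC-GCA2-1 lies on chromosome 4 from 123508850 to 123508921 and TRC-GCA2-2 on chromosome 17 from 38867645 to 38867716. The cysteine gene with the highest mean score percentile was TRC-GCA8-1, on chromosome 14 from 72962971 to 72963042. It scored 8 in HSPA1A replicate 1 and 7 in HSPA8 replicate 1 and belongs to a family of 1 gene.

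Position along the genome divided the cysteine genes in a split chosen after the values were seen. Of the 18 on chromosome 7, 3 had a peak in any list, while 10 of the 11 on other chromosomes had one. Family numbers generally follow falling similarity to the tRNA model. Of 15 cysteine genes in families numbered under 10, 11 had a peak in any list, against 2 of 14 in families numbered 10 or over. That cut was not planned. Nearly all cysteine genes in families numbered 10 or over lie on chromosome 7, so this split and the one by chromosome sort largely the same genes. Among alanine genes the counts by family number were 8 of 24 and 0 of 9. Among other tRNA genes the counts were 187 of 306 and 0 of 5, the latter too few to show a direction. Those of the 331 other tRNA genes outside these counts had no peak in any list.

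Alanine genes carried peaks least often of the 4 amino acids when all lists were joined. The anticodon TGC had a peak on 5 of 8 genes, CGC on 1 of 5 and AGC on 2 of 20. Of the 33 alanine genes 26 lie on chromosome 6, and 6 of these had a peak. TRA-AGC3-1, inside SCAND3 on chromosome 6 from 28607156 to 28607227, was the alanine gene with a peak in more than 1 list. It scored 5 in HSPA1A replicate 1 and 9 in HSPA1A replicate 2.

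TRA-CGC2-1, on chromosome 6 from 28673836 to 28673907, and TRA-TGC3-1, on chromosome 5 from 181206868 to 181206939, each had a score of 8 in HSPA1A replicate 1 and no peak elsewhere. TRA-TGC3-2, the other copy of that family, lies on chromosome 12 and had the same score of 8 in that list. TRA-TGC7-1, named after its values were seen, carried a peak of 135 bp in HSPA8 replicate 1 with a score of 7, which ran from 7 bp before the gene to 57 bp past it.

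Threonine genes had a peak on 4 of 9 genes with the anticodon AGT, 1 of 5 with CGT and 1 of 6 with TGT. TRT-AGT1-1, on chromosome 17 from 8187160 to 8187233, was the threonine gene found in the most lists. It scored 7 and 11 with HSPA1A and 10 in HSPA8 replicate 1 and had no peak in HSPA8 replicate 2. Its copy TRT-AGT1-3, on chromosome 19 from 33177057 to 33177130, scored 6 in HSPA1A replicate 2 and 7 in HSPA8 replicate 1.

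The third copy, TRT-AGT1-2, lies inside CTC1 on chromosome 17 from 8226235 to 8226308. It had no peak in any list, and the nearest peak lay 299 bp away. Copies of this family therefore differed by 3 lists, which no other family did. TRT-AGT5-1, on chromosome 17 from 8139452 to 8139525, had a score of 5 in HSPA1A replicate 1 alone.

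Where along the tRNA the peaks lay was measured from the 5′ end of the gene, taken from the strand of the peak because the gene table gives no strand. The genes are 71 to 74 bp long in the families named above. HSPA1A had its median peak middle 47.0 and 39.5 bp from the 5′ end, and HSPA8 52.5 and 36.5 bp. The difference between baits was -1.25 bp, less than the SD within either bait (p = 1, exact permutation test). Other tRNA genes had medians of 47.0, 39.5, 50.5 and 45.0 bp.

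The amino acids differed in which part was covered. All 9 threonine peaks and 8 of 9 alanine peaks began 30 bp or more from the 5′ end, so they left out the 5′ part of the tRNA. Among cysteine peaks this held for 2 of 12 in HSPA1A replicate 1 and 7 of 9 in HSPA8 replicate 1. Among glycine peaks it held for 6 of 61, all in HSPA8 replicate 1. Other tRNA genes showed it in 169 of 471 peaks (35.9%). Median peak widths over all lists were 62 bp for glycine, 55 bp for cysteine and 40 bp for both alanine and threonine.

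No peak ended before the middle of the gene, in 100 peaks on these genes, whereas 48 of 471 peaks on other tRNA genes did (10.2%). Peaks on copies of a family may share reads, so these are counts of peaks and not of independent sites.

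**Figure D4:**
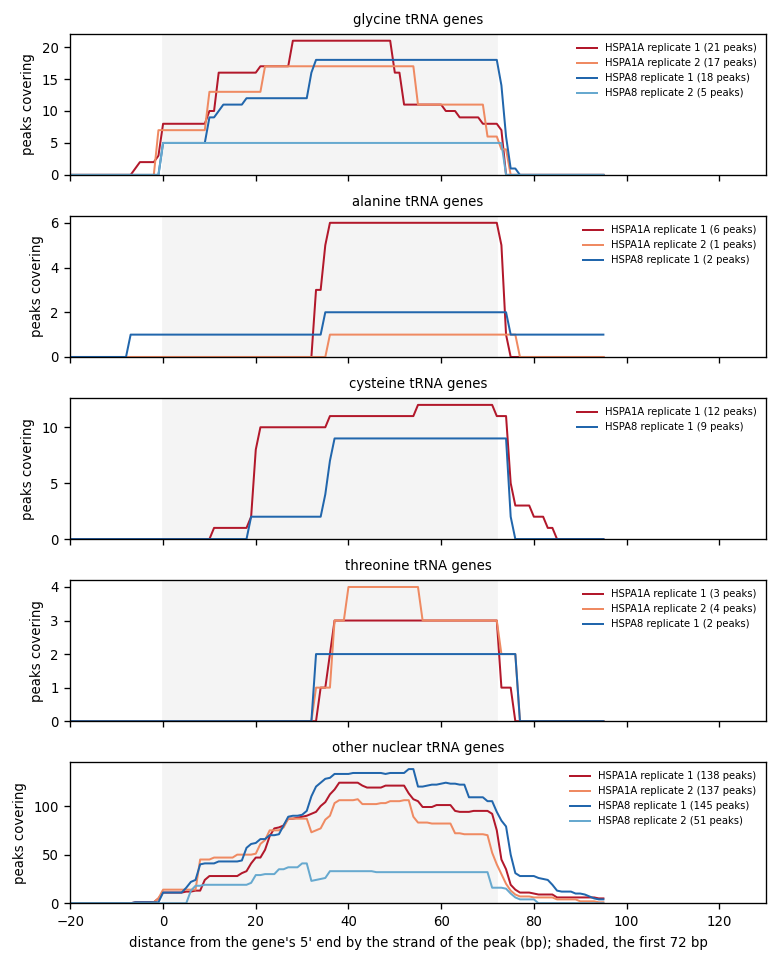
Number of peaks covering each position (vertical axis) by distance in bp from the 5′ end of the gene (horizontal axis), with 1 line per list and panels for the 4 amino acids and the other nuclear tRNA genes. All 9 threonine and 8 of 9 alanine peaks begin 30 bp or more from the 5′ end, against 6 of 61 glycine peaks.

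The 3′ ends of many peaks fell just past the gene, at a share that differed between lists. Of the 100 peaks, 65 ended 1 to 3 bp past the last base of the gene, and 29 ended at or before it. On other tRNA genes 174 of 471 peaks ended 1 to 3 bp past the gene (36.9%). By list the 65 were 23 of 42 and 8 of 22 HSPA1A peaks, and 29 of 31 and 5 of 5 HSPA8 peaks. Peaks ending exactly 3 bp past the gene numbered 48. They were 12 of 42 and 6 of 22 HSPA1A peaks, and 25 of 31 and 5 of 5 HSPA8 peaks. On other tRNA genes the counts were 14 of 138, 9 of 137, 52 of 145 and 6 of 51.

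The share ending exactly 3 bp past the gene was higher than for other tRNA genes in 4 of 4 lists, by 18.4 and 20.7 percentage points with HSPA1A and by 44.8 and 88.2 with HSPA8. The mean difference was 43.0 ± 32.4 percentage points (SD, n = 4, p = 0.125 by exact sign-flip permutation, its minimum), in a measure chosen after the positions were seen. It was 28.0 without HSPA8 replicate 2, whose 5 peaks are copies of 1 gene, and 14.6 with the narrower interval listed inside each peak (exact permutation p = 0.25). By amino acid 17 of 21 cysteine peaks, 25 of 61 glycine peaks, 4 of 9 threonine peaks and 2 of 9 alanine peaks ended there. In HSPA1A replicate 1, 8 of the 12 such peaks were on cysteine genes. The 6 in HSPA1A replicate 2 were all on copies of TRG-TCC2 and TRT-AGT1. Those in HSPA8 replicate 1 came from all 4 amino acids. The excess in several lists thus rested on 1 amino acid or few families. Counting each family once was not run for this measure, and copies of a family may share reads.

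Peaks ending further past the gene were few. In 6 of the 100 peaks the end lay more than 3 bp past the gene, beside 9 of 471 on other tRNA genes (1.91%). These were on TRA-AGC3-1, TRA-TGC7-1, TRC-GCA4-1, TRC-GCA9-2, TRC-GCA14-1 and TRG-CCC6-1, of which all but TRA-AGC3-1 are named after their values were seen, with TRC-GCA14-1 running 13 bp past the gene and TRC-GCA4-1 running 11 bp. In 11 of the 100 peaks the start lay before the 5′ end, by at most 7 bp, beside 11 of 471 on other tRNA genes (2.34%). Most of those on the members started 1 bp before copies of TRG-GCC1 and TRG-GCC2, so they are not independent sites. The tail CCA of a mature tRNA and a short trailer of a precursor cannot be told apart from the coordinates of a peak.

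**Figure D5:**
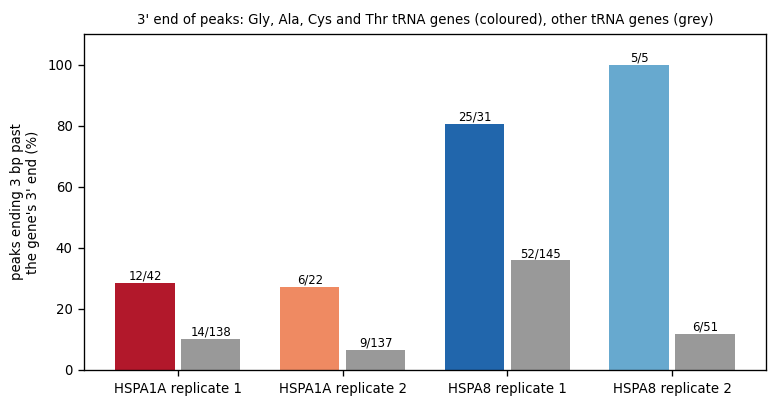
Percentage of peaks that end exactly 3 bp past the 3′ end of the gene (vertical axis, from 0) in each list, for glycine, alanine, cysteine and threonine tRNA genes in colour and other nuclear tRNA genes in grey, with peak counts above the bars. Coloured bars exceed grey bars in each of the 4 lists.

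Several of the genes lie inside longer genes. The span of a protein-coding gene encloses 13 of the 112, and 8 of these had a peak. Most of the 8 were copies of TRG-GCC2, so they are not independent sites. The matching share for other tRNA genes is not given here. Among the 8, TRG-GCC2-4 and TRG-GCC2-5 lie in VAC14, and their HSPA1A scores were 8 and 6, and 8 and 7. In HSPA8 replicate 1 they scored 9 and 6. TRG-GCC3-1, also in VAC14, had a score of 6 in HSPA1A replicate 1 and no peak elsewhere. TRC-GCA7-1 in FNBP1L was the cysteine gene among them, with a peak in both lists numbered 1. Levels of the host transcripts were not measured here.

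Genes that act on these tRNAs were counted as well. The list held 38 genes, among them the synthetases GARS1, AARS1, CARS1 and TARS1, processing enzymes, the exporter XPOT, and subunits of RNA polymerase III and its factors. A peak lay on 2 of them, RPPH1 and TRNT1. RPPH1, the RNA subunit of RNase P that cuts the tRNA leader, carried 4 and 4 peaks with HSPA1A and 3 and 3 with HSPA8, with best scores of 60, 67, 22 and 11. TRNT1, the enzyme that adds CCA, carried 1 peak within its span with a score of 5 in HSPA8 replicate 1.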

How the data were processed

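FLASH-seq peak lists of 2 HSPA1A and 2 HSPA8 libraries were used, each made from 1 replicate. The submitters' processing notes name Trim Galore 0.4.4, FastQC, STAR 2.6.0b, deepTools and the build GRCh38. How peaks were called, at which threshold, and how reads matching several places were handled is not given in the sources used here. Per the labels, random adapter tags were used to merge PCR duplicates. Each peak has a whole-number score deposited by the authors, whose meaning is not stated, and read depth is unknown, so Wilson intervals cover counting error over peaks alone.

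Start positions were turned to 1-based and chromosome names unified. Genes came from the RefSeq table for GRCh38.p14, which gives no strand, so any overlap of 1 bp or more counted on either strand. No sequence is printed. The score percentile is the average rank within a list. The overlap step was tested on simulated peaks. Baits were compared over lists with an exact permutation test (two-sided), and the genes with other tRNA genes by an exact sign-flip test over lists. P-values refer to these lists alone. The sign-flip p is at its minimum whenever all lists differ in the same direction, whatever the spread between them. All lists were scored on the same genes and families, so they are not independent draws of genes. The members, lists and named genes were chosen with earlier results of these data known. Named genes are those with a peak in all 4 lists, the 3 per amino acid with the highest mean score percentile, those found in both lists of a bait and neither of the other, families whose copies differ by 3 or more lists, and related genes in at least 3 lists. Other copies of a named family, the TRG-TCC2 genes, TRC-GCA7-1, TRNT1, genes inside VAC14 and genes with unusual peak ends were added after their values were seen. Alternatives were a stricter overlap or score, equal numbers of peaks, merging within 50 bp, common chromosomes, families counted once, base pairs, each replicate left out and the replicate block. A narrower interval within each peak and the 3′ end measure were added after the data were seen. Families counted once was not run for the 3′ end measure. Computation used scipy 1.17.1 under Python 3.11.15.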

Additional observations from a re-analysis of the deposited data

How the results depend on the processing

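Of 200 values under other settings, 173 kept their direction or stayed within 1.5 times the count. That tally is not a measure of stability. The replicate block repeats the main difference by construction, and the stricter overlap left every value unchanged. Merging and common chromosomes left the counts of genes with a peak unchanged. The cause of the changes was not tested except where fewer peaks or genes remain by construction. The exact tests between baits cannot give a p below 0.333, so an unchanged call says nothing about stability. Matching the strand of the gene was not run because the gene table gives none. With peaks scored above their list's median, the genes with a peak changed from 14 more to -4.5 (HSPA1A minus HSPA8), their share of peaks to -0.294 percentage points, glycine to -15.0 and alanine, cysteine and threonine to 0. Glycine against other tRNA genes became -7.46, genes in both HSPA1A, both HSPA8 and all 4 lists became 0, families with a peak fell from 30 to 2 and related genes from 2 to 1. Position and score percentile could not be computed there, since 3 lists keep no peak. Families counted once gave 5, 1 and 1 for the genes in both HSPA1A, both HSPA8 and all 4 lists, and turned the position difference from -1.25 to 1.13 bp. The narrower interval turned it to 5 bp. Equal numbers of peaks, with ties broken by position, turned cysteine to -1.72 and left 1 related gene.

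With 1 replicate left out, ranges were -12.3 to 27.1 for the score percentile difference (reversed without HSPA8 replicate 2), -9.25 to 6.75 bp for position (reversed without HSPA1A replicate 2, and without HSPA8 replicate 1), 3.33 to 46.7 for glycine, 7.50 to 17.5 for threonine, 0 to 15.2 for alanine, -15.5 to 25.9 for cysteine (reversed without HSPA1A replicate 1, and without HSPA8 replicate 2), 18 to 30 families (18 without HSPA1A replicate 1) and 1 to 2 related genes. The labels give no day or batch to a replicate number. Over the 112 genes, lists sharing a number deviated from the bait means with a correlation of 0.103. With the replicate block the difference was 14 genes, the same as without it by construction (p = 0.5 by exact sign-flip permutation, its minimum).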

Other observations

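The mitochondrial tRNA genes for the same amino acids had overlapping peaks in the lists numbered 1 alone, as the nuclear cysteine genes did. On TRNA, for alanine, a peak from 5584 to 5623 in HSPA1A replicate 1 and a peak from 5584 to 5639 in HSPA8 replicate 1, both on the minus strand with a score of 10, ended 3 bp past the gene. On TRNG, for glycine, a peak from 10004 to 10060 in HSPA8 replicate 1 had a score of 6 and ended 2 bp past the gene. On TRNC, for cysteine, which like TRNA is encoded on the minus strand, a peak from 5803 to 5826 in HSPA1A replicate 1 lay on the plus strand with a score of 5, antisense to the tRNA. The remaining overlaps with TRNA, TRNC and TRNT covered only an edge of the gene, such as the peak from 15953 to 16076 beside TRNT, which ends at 15953.

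Another 8 nuclear tRNA entries for alanine and glycine have symbols of an older form, TRNAA-AGC and TRNAG-CCC, and fell outside the rule. None of the 8 carried a peak in the 4 lists. They count among the 331 other nuclear tRNA genes, so each comparison with other tRNA genes includes them. The table also holds 8 tRNA pseudogenes for these amino acids, and 0 of them carried a peak.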
